A study of Mus musculus with 50 samples.

Results

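The genes described here are 10 transcriptional targets of p53 that act in cell cycle arrest, stress handling and feedback on p53: Cdkn1a, Mdm2, Ccng1, Btg2, Zmat3, Trp53inp1, Plk2, Plk3, Sesn1 and Sesn2. They were chosen by name with earlier results of these data known, as were the other 14 gene lists below, so no test was run over a list. All 10 have a row among the 12819 rows of the authors' deposited table. Cells were V6.5 mouse embryonic stem cells, of strain C57Bl/6-129, with the genotype Cdk12 -/-:Cdk12 Tg+: both endogenous copies of Cdk12 are knocked out and a doxycycline (Dox) inducible, Flag- and HA-tagged Cdk12 transgene replaces them. The 0 h group was kept in Dox at 1 µg/mL, and the other groups were sampled 24 h and 48 h after Dox was removed, which shuts the transgene off. Each time holds 4 polyA-selected RNA libraries, 2 from each of 2 clones, numbers 28 and 36. A further 6 libraries came from parental cells with the genotype Cdk12 Fl/Fl; Cdk12 Tg-, clone 21, with floxed Cdk12 and no transgene, given Dox for 17 days and collected at the same 3 times as a control for effects of Dox itself; no source used here says whether the Dox mark or the adjusted p described below draws on them.

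The table gives group comparisons only, so no value per library, no SD and no sequencing depth can be set beside a gene. All changes below are log2 values of the later time over 0 h. The headers state no direction. The column names put 0 h before the later time, and Cdk12, taken to be lower after Dox removal, then stands at -0.61 at 24 h and again at 48 h by the authors' deposited table. The opposite reading would exchange every rise and fall. Cdk12 was not called at either time, with posterior probabilities of 0.0704 and 0.266 given by the authors' deposited table, and since its sign set the direction it does not check the labels. Both comparisons share the same 0 h libraries. In the knockout clones the removal of Dox and the loss of Cdk12 coincide, and in these columns their effects cannot be told apart. All 15 embryonic stem cell markers looked for have a row, but the table holds no expression levels with which to check the cell type. In bulk RNA, a change in the share of expressing cells and a change in RNA per cell cannot be told apart either.

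The transcription factor p53 is held low by the ubiquitin ligase Mdm2, itself a p53 target, and accumulates when DNA damage or other stress blocks that turnover. It then activates genes for arrest, above all Cdkn1a, which encodes the cyclin-dependent kinase inhibitor p21, together with genes for repair, cell death and its own restraint. Mouse embryonic stem cells carry p53 and are known for a short G1 phase with little p21-dependent arrest.

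By 48 h without Dox most of these targets stood higher than at 0 h. Plk2, Mdm2, Trp53inp1, Sesn2, Cdkn1a and Zmat3 had risen, between 1.62-fold and 2.82-fold, in the authors' deposited table. All of these except Sesn2 carry a mark in that table that is named for an effect of Dox and not defined there. A gene was called where its deposited posterior probability of differential expression was at least 0.95. By that rule 6 of the 9 members with a posterior probability were called as risen at 48 h and 0 as fallen, where 3.72% of all 12408 genes with a posterior probability were called as risen and 3.97% as fallen. At 24 h 1 of 10 members, Plk2, was called as risen and 0 as fallen, where the shares over 12663 genes were 0.45% and 0.679%. The median change of the 10 members was 0.26 at 24 h and 0.73 at 48 h, beside 0.01 over all genes at each time, computed from the authors' deposited table. At both times 8 members lay above 0 and 2, Plk3 and Sesn1, below.

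**Figure D1:**
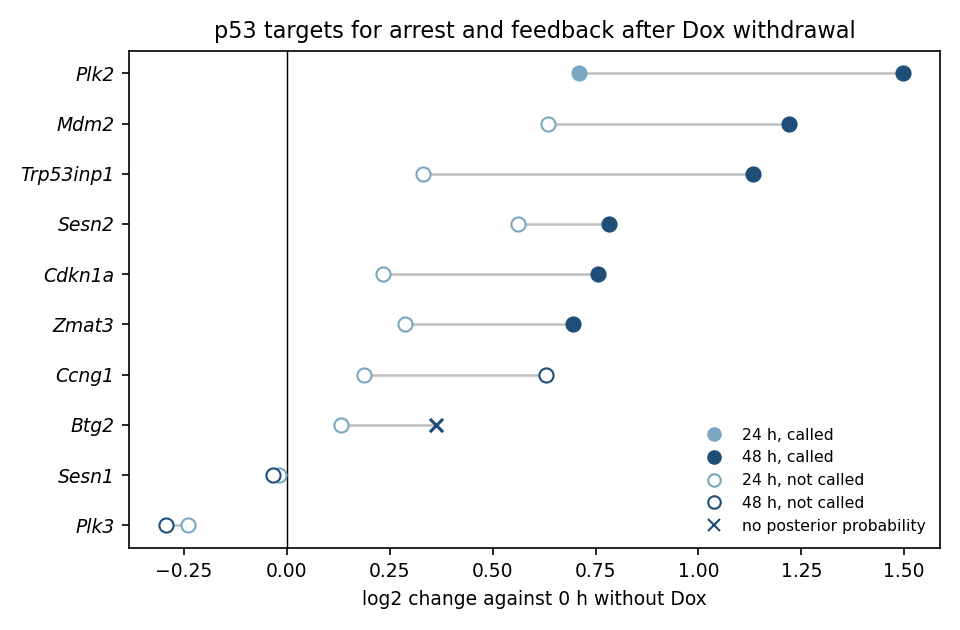
Each row is 1 of the 10 genes, and the horizontal axis is the log2 change against 0 h in the authors' deposited table at 24 h (light) and 48 h (dark). Filled circles were called at a posterior probability of at least 0.95, open circles were not, and the cross is Btg2 at 48 h, which has no posterior probability; Plk2 lies highest at 1.497 and Plk3 lowest at -0.29.

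**Figure D2:**
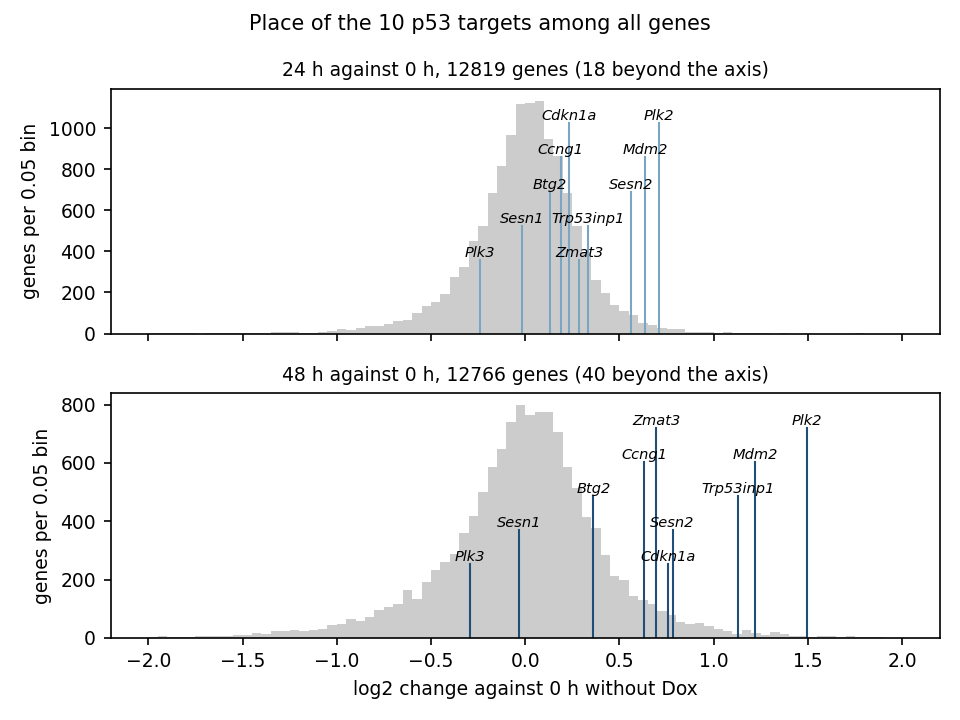
Grey bars count genes per 0.05 bin of log2 change against 0 h at 24 h (top) and 48 h (bottom), and each line places 1 of the 10 targets. The members' median moved from 0.26 to 0.73 between the panels while the median of all genes stayed at 0.01.

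Of the 2 genes best known for arrest, Cdkn1a was called at 48 h and Btg2 could not be. Cdkn1a stood at 0.23 at 24 h with a posterior probability of 0.452, and was not called. At 48 h it had risen by 0.76, or 1.69-fold, with a posterior probability that rounds to 1 in the authors' deposited table. At 48 h 468 of 12766 genes had a higher signed change than Cdkn1a, larger falls not being counted. Btg2, an antiproliferative gene whose product recruits the CCR4-NOT deadenylase, stood at 0.13 at 24 h and 0.36 at 48 h, as the authors' deposited table gives them. It has no posterior probability at 48 h and so could not be called, and its deposited adjusted p at that time was 0.63.

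The feedback genes moved by unequal amounts. Mdm2 stood at 0.64 at 24 h and was not called, with a posterior probability of 0.467, and had risen by 1.22 at 48 h in the authors' deposited table. Trp53inp1, a nuclear and autophagy-linked protein that promotes p53 phosphorylation, stood at 0.33 at 24 h and had risen by 1.13, or 2.19-fold, at 48 h by the authors' deposited table. Among the members it had the largest step between the times, 0.80 on the log2 scale or 1.74-fold from 24 h to 48 h, taken as the difference of the 2 deposited changes, with no error available. Zmat3, a zinc finger RNA-binding protein, stood at 0.29 at 24 h and had risen by 0.69, or 1.62-fold, at 48 h in the authors' deposited table. Ccng1 encodes cyclin G1, which brings protein phosphatase 2A to Mdm2. It stood at 0.19 at 24 h and 0.63 at 48 h, by the authors' deposited table, with a posterior probability of 0.405 at 48 h, so a difference from 0 h close to that of Zmat3 was not called.

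Bases upstream of the annotated starts are shown for the members with a p53 motif in those bases. They are also shown for Plk2 and Sesn2, which were called as risen and had no match there. Sequence outside these windows was not searched, so a p53 motif elsewhere in a gene would be missed. The windows are the 250 bases before a start in RefSeq's annotation of GRCm38.p6, and 8 of the 10 members have one. Zmat3 and Trp53inp1, both called as risen at 48 h, have no window and were not searched. Capitals mark p53 motifs and, in Plk2, a cAMP response element. The windows lie at chr17:29090729-29090978 on the plus strand for Cdkn1a (the more upstream of 2 starts), chr11:40755287-40755536 on the minus strand for Ccng1 and chr10:117710759-117711008 on the minus strand for Mdm2. The other windows are chr13:110394794-110395043 on the plus strand for Plk2, chr10:41887189-41887438 on the plus strand for Sesn1 (the more downstream of 2 starts) and chr4:132510457-132510706 on the minus strand for Sesn2.
Cdkn1a: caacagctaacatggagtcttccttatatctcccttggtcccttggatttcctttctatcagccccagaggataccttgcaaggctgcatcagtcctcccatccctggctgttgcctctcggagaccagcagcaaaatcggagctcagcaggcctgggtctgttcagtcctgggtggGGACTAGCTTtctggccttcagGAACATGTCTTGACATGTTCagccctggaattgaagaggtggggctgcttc
Ccng1: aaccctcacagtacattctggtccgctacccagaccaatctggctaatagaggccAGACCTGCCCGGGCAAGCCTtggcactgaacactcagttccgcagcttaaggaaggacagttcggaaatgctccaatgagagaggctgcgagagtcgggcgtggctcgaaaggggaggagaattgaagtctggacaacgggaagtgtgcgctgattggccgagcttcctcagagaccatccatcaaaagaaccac
Mdm2: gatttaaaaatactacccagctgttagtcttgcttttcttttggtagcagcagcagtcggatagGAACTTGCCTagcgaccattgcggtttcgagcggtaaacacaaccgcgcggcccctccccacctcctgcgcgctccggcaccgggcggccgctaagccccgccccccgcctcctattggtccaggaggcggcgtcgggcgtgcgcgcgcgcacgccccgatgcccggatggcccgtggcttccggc
Plk2: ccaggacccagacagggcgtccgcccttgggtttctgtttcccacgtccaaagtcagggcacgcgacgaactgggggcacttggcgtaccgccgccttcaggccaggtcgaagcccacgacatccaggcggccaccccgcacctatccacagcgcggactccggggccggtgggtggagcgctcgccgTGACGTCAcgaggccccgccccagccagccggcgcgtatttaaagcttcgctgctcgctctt
Sesn1: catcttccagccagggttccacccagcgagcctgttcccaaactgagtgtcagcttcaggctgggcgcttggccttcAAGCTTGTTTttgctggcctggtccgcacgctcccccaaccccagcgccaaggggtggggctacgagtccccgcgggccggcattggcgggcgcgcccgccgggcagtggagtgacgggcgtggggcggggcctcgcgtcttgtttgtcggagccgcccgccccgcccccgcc
Sesn2: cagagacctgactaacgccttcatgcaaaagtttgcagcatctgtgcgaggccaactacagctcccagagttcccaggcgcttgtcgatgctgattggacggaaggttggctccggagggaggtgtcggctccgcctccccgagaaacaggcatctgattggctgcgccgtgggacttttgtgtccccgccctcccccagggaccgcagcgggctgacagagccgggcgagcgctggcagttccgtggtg

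A p53 decamer, the 10-base unit of which a p53 response element has a pair, was matched exactly on both strands, its pattern being its own reverse complement. It was found in 4 of the 10 windows of the 8 members, those shown for Cdkn1a, Ccng1, Mdm2 and Sesn1, and in 7.13% of all 32851 windows. An exact full site, 2 such decamers with at most 13 bases between them, was found in 21 windows, or 0.0639%, and among these 8 members in Cdkn1a alone. An adjoining pair of decamers with at most 1 mismatch, a rule chosen after the sequences were seen, was found in 25 of the 32851 windows, or 0.0761%. Those of Cdkn1a and Ccng1 are among them. In Cdkn1a the pair is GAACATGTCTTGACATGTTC and begins 51 bases upstream of the start, and in Ccng1 it is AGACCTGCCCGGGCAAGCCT, 195 bases upstream. The Cdkn1a window holds another exact decamer 12 bases before that pair, which with the first decamer of the pair makes its exact full site. In Mdm2 and Sesn1 the single decamer begins 186 and 173 bases upstream. A match is a description of these letters, and binding of p53 was not measured. Of the pair of genes with the adjoining motif, Cdkn1a was called at 48 h and Ccng1 was not. The palindrome TGACGTCA, the cAMP response element bound by Creb and Atf factors, is in the windows of Plk2, 62 bases upstream, and Btg2, 166 bases upstream, and in 1.55% of all windows. The CCAAT box (CCAAT or ATTGG) is in 6 of the 10 member windows, from 5 members, and in 33.8% of all windows. The GC box (GGGCGG or CCGCCC) is in 8 of the 10, from 7 members, and in 32.7% of all windows. The member windows are rich in G and C, at 54% to 73.2% of bases, where the median of all windows is 52.4%. The part of that content in the GC box count was not tested.

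The polo-like kinases separated. Plk2, a stress-induced kinase of centrioles and the S phase checkpoint, had the largest rise of the 10 genes at both times. It rose by 0.71, or 1.64-fold, at 24 h with a posterior probability of 0.998, and by 1.497, or 2.82-fold, at 48 h, in the authors' deposited table. At 48 h 42 of 12766 genes had a higher signed change. Plk3, a related kinase that responds to DNA damage and oxidative stress, stood at -0.24 at 24 h and -0.29 at 48 h, as the authors' deposited table gives them. Its posterior probabilities of 0.0077 and 0.0965 left it uncalled.

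The sestrins, stress proteins that restrain mTORC1 through the GATOR complexes, also separated. Sesn2 stood at 0.56 at 24 h, uncalled with a posterior probability of 0.0406, and had risen by 0.78, or 1.72-fold, at 48 h in the authors' deposited table. Its step from 24 h to 48 h was 0.22, where that of Cdkn1a, with a similar change at 48 h, was 0.52. No error is available for either step, and neither gene was called at 24 h. Sesn1 stood at -0.02 and -0.03 with posterior probabilities of 0.00453 and 0.0178 in the authors' deposited table. No test of Sesn1 against Sesn2, or of Plk3 against Plk2, is possible without values per library.

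Of 19 listed paralogs of the members 16 have a row and a posterior probability at both times, and 0 were called in either direction at 24 h or 48 h. Beside shares of 3.72% risen and 3.97% fallen over all genes at 48 h, a count of 0 in a list of this size is close to the background. Their median was 0.05 at 24 h and 0.23 at 48 h. Ccng2, the other cyclin G, and the polo-like kinase gene Plk5 had the largest changes among them at 48 h, 0.70 and 0.59, with posterior probabilities of 0.416 and 0.846 in the authors' deposited table. The remaining sestrin, Sesn3, stood at 0.54 at 48 h with a posterior probability of 0.0891 in the authors' deposited table. Mdm4, which binds and inhibits p53 beside Mdm2, stood at 0.19, and the inhibitors Cdkn1b and Cdkn1c at 0.27 and 0.30, in the authors' deposited table at 48 h. The uncalled change of Ccng2 was thus as large as the called rise of Zmat3.

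**Figure D3:**
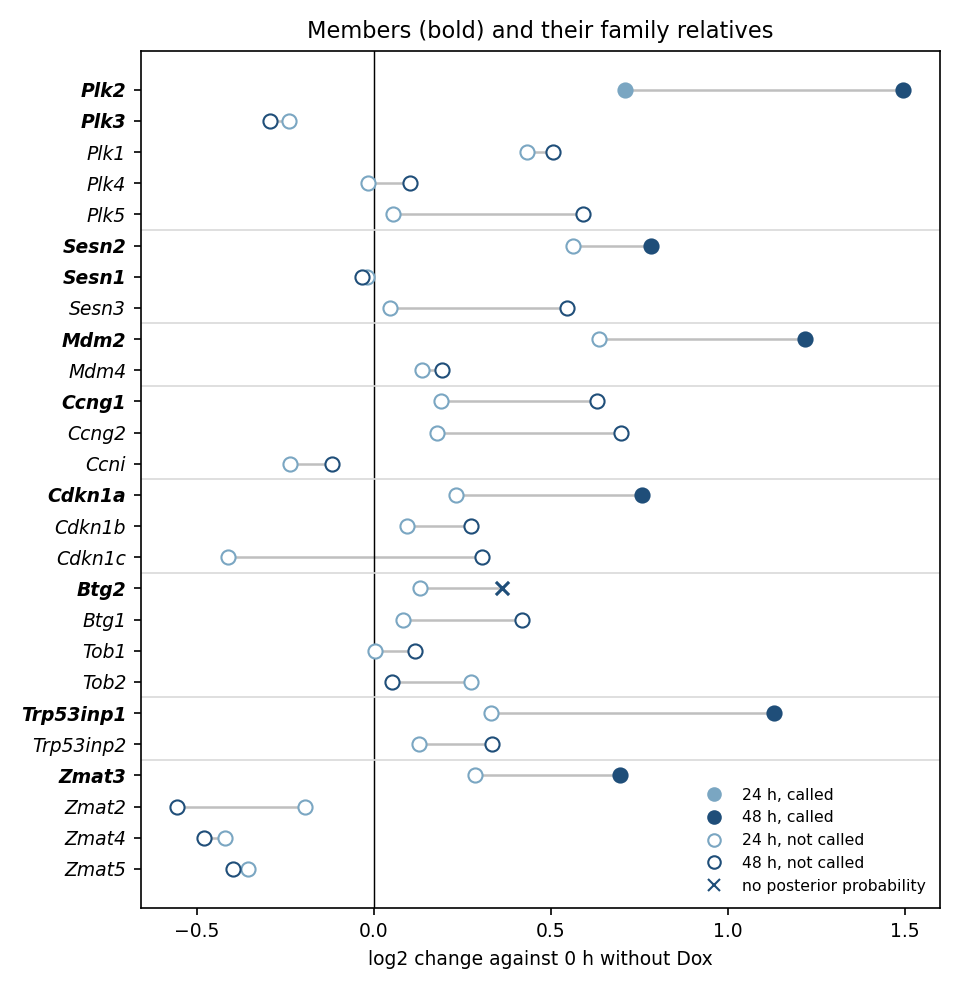
Rows are the members (bold) and their paralogs, grouped by family, and the horizontal axis is the log2 change against 0 h in the authors' deposited table at 24 h (light) and 48 h (dark). Filled circles were called, open circles were not, and the cross has no posterior probability; all 16 non-member relatives are open at both times.

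Trp53, the transcript of p53 itself, stood at 0.13 at 24 h and 0.05 at 48 h and was not called, with posterior probabilities of 0.00107 and 0.00214 in the authors' deposited table. Of 26 measured genes in the list of p53 and its regulators, 2 of the 24 with a posterior probability were called as risen at 48 h, or 8.33% beside 3.72% of all genes, and 0 as fallen. They were Wrap53 at 0.85, a telomerase RNA-binding protein gene that overlaps Trp53 on the opposite strand, and Ppp1r13l at 0.58, an inhibitor of p53, in the authors' deposited table. No source used here says whether the counting used strand, so reads of Wrap53 and Trp53 may not be fully separated. The median over this list moved from 0.14 to 0.19 between the times.

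Some other p53 targets rose at 48 h beside the arrest and feedback genes. Over all genes with a posterior probability, 3.72% were called as risen at that time and 3.97% as fallen. In the list named for cell death 5 of 14 targets with a posterior probability were called as risen and 0 as fallen, with a list median of 0.43. Membership is by list only, and no part of any gene in cell death was measured. They included Bbc3 (Puma) at 1.32 and Pmaip1 (Noxa) at 0.80, both BH3-only death proteins, Zfp385a at 0.83 and Trp53i11 at 0.79 in the authors' deposited table. Of targets for repair and metabolism 4 of 16 were called as risen and 0 as fallen, with a median of 0.19. These were the epoxide hydrolase Ephx1 at 1.66, the phosphatidate phosphatase Lpin1 at 1.22, the excision repair nuclease Ercc5 at 0.92 and the proline pathway enzyme Aldh4a1 at 0.78 in the authors' deposited table. In the remaining list of p53 targets 10 of 27 were called as risen and 0 as fallen, with a median of 0.52, and Ptprv at 1.82, Tap1 at 1.76, Ano3 at 1.74 and Zfp365 at 1.55 led it in the authors' deposited table. The Dox mark is on 2 of the 5, 3 of the 4 and 4 of the 10 called genes of these lists, among them Bbc3, Pmaip1, Ephx1, Lpin1, Ercc5, Ptprv, Tap1 and Zfp365. At 24 h the calls in these 3 lists were Zfp385a at 0.55, Ptprv at 0.54 and Zfp365 at 0.63 in the authors' deposited table. They were 1 of 15 targets in the cell death list, Zfp385a alone, and 2 of 28 remaining targets, beside 0.45% of all genes called as risen. For repair and metabolism the count was 0 of 18.

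Of 18 genes of the G1 to S transition, on which p21 acts through cyclin-dependent kinases and Rb proteins, 0 of 17 with a posterior probability were called as risen and 1 as fallen at 48 h, E2f2, at -0.63 in the authors' deposited table. That is 5.88% fallen, and the mTORC1 list below has 4.35%, beside 3.97% of all genes, so neither share stands far from the background. The median of the G1 to S list was -0.14, and 15 of 18 lay below 0. The largest change in it lay above 0, that of Rb1 at 1.15, not called, with a posterior probability of 0.888 in the authors' deposited table. Another list held 25 genes that are repressed through p21 and the DREAM complex. It is not confined to the G2 and M phases, since it includes the replication gene Mcm5. Of these genes 0 of 22 with a posterior probability were called in either direction, and 19 of 25 lay above 0, with a median of 0.14. The largest changes among them were those of Plk1 at 0.51 and Cks2 at 0.45, neither called, in the authors' deposited table. The mTORC1 list, of genes downstream of sestrins, also holds Nfe2l2, which is outside that pathway. In this list 1 of 23 genes was called, Depdc5, a GATOR1 subunit. It fell by 1.31, leaving 40.3% of the 0 h level, according to the authors' deposited table, and the list's median was 0.06.

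**Figure D4:**
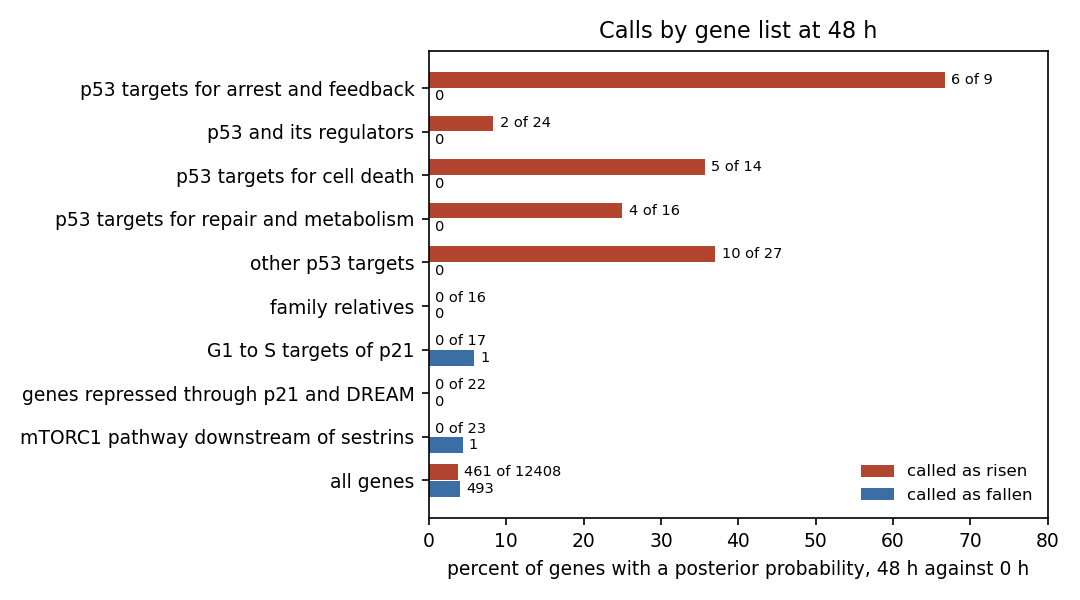
Bars give the percent of genes with a posterior probability that were called as risen (red) or fallen (blue) at 48 h against 0 h, by gene list, with the counts beside them; the bottom pair is all genes. The 10 arrest and feedback genes have 6 of 9 called as risen, where all genes have 461 of 12408.

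A further list held stress factors that can induce some of these targets without p53, and some of their targets. Foxo3, a forkhead factor of oxidative and nutrient stress, rose by 0.57 at 24 h and 0.81 at 48 h, and the AP-1 gene Fos rose by 0.68 at 48 h, in the authors' deposited table. Those were the 2 called of 12 at 48 h, beside 3.72% of all genes called as risen. At that time 7 of the 12 lay above 0 and 5 below, with a median of 0.16.

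Most of the called members carry a mark that the authors named for a Dox effect and whose meaning the table does not define. Plk2, Mdm2, Trp53inp1, Cdkn1a and Zmat3, or 5 of the 6 called members, carry it at 48 h, and Sesn2 does not. Among all 461 genes called as risen at 48 h 66 carry it, or 14.3%. All 149 marked genes at 48 h are among the called genes, so taking them out can only lower a count of calls. Without marked genes 1 of the 4 members left with a posterior probability was called as risen at 48 h, beside 395 of 12259 genes in all. At 24 h 3 genes of the whole table carry the mark and no member is among them. A second statistic, an adjusted p from an unnamed test, is also deposited. At 0.05 it was passed at 48 h by 4 members, Plk2 at 1.41e-06, Mdm2 at 0.000176, Trp53inp1 at 0.00207 and Sesn2 at 0.0458 in the authors' deposited table, all higher than at 0 h, where 1.72% of 12526 genes passed it as risen. Cdkn1a and Zmat3, at adjusted p values of 0.0608 and 0.0829 in the authors' deposited table, did not. At 24 h 0 members passed it, Plk2 at 0.704 included, where 0.0159% of 12551 genes, or 2, passed as risen.

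Markers of other cell types moved in part alongside. The shares over all genes at 48 h were 3.72% called as risen and 3.97% as fallen. At 48 h 2 of 11 endoderm markers, Gata4 at 0.85 and Gata6 at 0.79, were called as risen in the authors' deposited table, and the list ranged from -0.34 to 1.36. Trophoblast markers ranged from -1.78 to 1.49, with 1 of 10 called as risen, Tfap2c at 1.19, and 1 as fallen, Ascl2 at -1.78, in the authors' deposited table. Among the 5 measured neural markers Neurod1 was called at 2.53 in the authors' deposited table, while 3 of the 5 lay below 0, the lowest at -0.97. Among the 5 measured fibroblast markers Col1a1 was called at 0.89 in the authors' deposited table, while 2 of the 5 lay below 0, the lowest at -0.46. Both called genes carry the authors' Dox mark. Embryonic stem cell markers had 0 of 15 called at 48 h, with a range of -0.46 to 0.43, by the authors' deposited table. At 24 h the marker calls were Klf2 of the stem cell list at 0.60, Sox7 of the endoderm list at 0.55 and Ascl2 of the trophoblast list at -2.34 in the authors' deposited table. The shares over all genes at 24 h were 0.45% called as risen and 0.679% as fallen. The part of these cells in the rise of the p53 targets was not tested.

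Genes with the pair of changes nearest to the members' median pair of 0.26 and 0.73, by Euclidean distance over the 2 times, were H2-Ab1, Zfyve21, Scn3b, Dnalc1 and Marveld2. All 5 lay within 0.0219 of it on the log2 scale, and Zfyve21, at 0.72 at 48 h in the authors' deposited table, was the only one called then. The likeness rests on 2 values that share a control.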

How the data were processed

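The data are 1 table of the authors' own comparisons of polyA-selected RNA at 24 h and 48 h without Dox with 0 h. Per the submitters' processing notes, the tools include RSEM, STAR 2.4.1d and DESeq 1.22.1, and the builds mm9 and mm10, with no role stated for any of them. Per the file headers, the authors deposited for each gene and time a posterior probability between 0 and 1, a log2 fold change, an adjusted p-value with no stated test, and a mark, yes or no, named for a Dox effect. Log2 changes were multiplied by -1 to read as the later time over 0 h. No model was fitted here across all genes, since no column holds a library; precision beyond the authors' statistics cannot be given, and depth is unknown.

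Calls were counted with Python 3.11.15 and pandas 2.3.3, with the counting tested on simulated data. Members and the other 14 lists were chosen with earlier results of these data known. Named genes are all members, Cdk12, Trp53, up to 4 called genes per other list (or the 2 largest uncalled) and the 5 nearest genes. Sesn3, Mdm4, Cdkn1b, Cdkn1c, Rb1, Mcm5, Nfe2l2 and all neighbouring genes were named after their values were seen. Motifs were also chosen with the changes known. Alternatives tried were a threshold of 0.99, a floor on the change of 1.5-fold or 2-fold, the adjusted p-value as the call, removal of marked genes, and centring.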

Additional observations from a re-analysis of the deposited data

How the results depend on the processing

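With a posterior probability of at least 0.99 or a minimum change of 1.5-fold, the members called as risen stayed at 6 at 48 h and 1 at 24 h, while all genes called as risen went from 461 to 394 and 401 at 48 h and from 57 to 45 and 39 at 24 h. A minimum change of 2-fold left 3 at 48 h and 0 at 24 h, with 145 and 4 genes in all. With the deposited adjusted p as the call there were 4 members at 48 h and 0 at 24 h, and 216 and 2 genes in all. Without marked genes 1 of 4 members was called as risen at 48 h, beside 395 of 12259 genes in all. The median of the 5 unmarked members was 0.36 in place of 0.73. Since the mark is on called genes only, its removal could only lower the count of calls. No member was called as fallen at either time under these alternatives, and centring on the median of all genes left the members' medians at 0.25 and 0.71. Over members and times, 4 calls were lost at 2-fold and 3 with the adjusted p. The causes were not tested. No paired analysis was possible because the table holds no column per library, and for the same reason no replicate could be left out.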

Other observations

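Genes next to the 10 targets were read from the order of protein-coding genes in RefSeq's GRCm38.p6 annotation, taking the nearest gene with a row on each side of each member, 20 in all. Of all genes with a posterior probability, 3.72% were called as risen at 48 h and 3.97% as fallen. Among the 20 neighbours 2 were called as risen at 48 h and 0 as fallen, and their median was 0.03. Both lie beside an uncalled member: Foxo3, the forkhead factor gene, beside Sesn1, at 0.81, and Btbd19, beside Plk3, at 0.57 in the authors' deposited table. Neighbours of the largest rise, Pde4d and Gpbp1 beside Plk2, stood at -0.21 and 0.08 at 48 h by the authors' deposited table. Cpne5, beside Cdkn1a, stood at -2.27 with a posterior probability of 0.815 in the authors' deposited table, the largest difference among the neighbours, and was not called. Protein-coding genes without a row were skipped. Each neighbour named here has 1 such gene between it and its member, or 2 for Pde4d.

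The deposited posterior probability did not follow the size of the change alone. At 24 h Cdkn1a, at 0.23, had a posterior probability of 0.452, while Sesn2, at 0.56, had 0.0406 in the authors' deposited table. Of the 1315 other genes within 0.05 of the change of Cdkn1a at 24 h, 97.5% had a lower posterior probability than Cdkn1a. At 48 h Zmat3, at 0.69, was called and Ccng1, at 0.63, was not, by the authors' deposited table. Within 0.05 of the change of Ccng1 68 of 250 other genes were called, and within 0.05 of that of Zmat3 66 of 209.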
